A study of Mus musculus with 60 samples.

Results

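The step between day 4 and day 6 of adipocyte differentiation was examined in the 23-CATA line of C3H10T1/2, a mouse mesenchymal cell line that can be induced to form fat cells. The comparison used the 3 day 6 and the 3 day 4 libraries carrying that label, 6 of the 60 polyA RNA samples of the series, which form 20 groups. The same step in the 23-NC and 23-Tet1 populations, 6 libraries each, served as comparison. What distinguishes the populations is given in the labels only by these names, with 23-Tet followed by a running number in the genotype field of the third. The labels give the same protocol for all 3. Cells were grown in DMEM with 10% FBS and induced 1 day after confluence (day 0) for 48 h with 1 µM rosiglitazone, 1 nM T3, 1 µM dexamethasone (a synthetic glucocorticoid), 0.5 mM IBMX and insulin at 10 µg/ml in 10% FBS. Insulin at 5 µg/ml was then used, so day 4 and day 6 fall 2 and 4 days after the induction mixture was withdrawn. No label says whether the replicates are separate cultures, so p-values measure the spread between these samples only.

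Fat cell formation from such cells runs through an early wave of C/EBP factors to PPARγ and C/EBPα, which switch on genes for lipid uptake, triglyceride storage and adipokine secretion. Dexamethasone acts through the glucocorticoid receptor, which directly induces a set of genes that includes its own co-chaperone gene Fkbp5. Interferons act through cell surface receptors and Janus kinases on a complex of transcription factors that includes STAT2 and IRF9. It binds the interferon-stimulated response element in the promoters of antiviral genes. Mature adipocytes are known to make chemokines, complement factors and acute phase proteins as well as storage lipid.

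Levels are given in FPKM, fragments scaled to transcript length and library size, so they can be compared between genes. Changes are log2 differences of FPKM + 1, day 6 minus day 4, with the standard error, and are given after subtracting the median change of the 12231 tested genes. That median lay at 0.111 on the deposited scale, so relative changes have a median of 0 over all genes. A gene was called changed at an adjusted p under 0.05 (limma, Benjamini-Hochberg over all genes), which tests the deposited difference before the median is subtracted. Of the genes tested, 38.1% were called, 28.4% higher and 9.77% lower at day 6. After median-ratio scaling 33.8% were called, 16.0% higher and 17.8% lower, and the share of calls that were higher was 47.3%, against 74.4% on the deposited scale. No gene was called in opposite directions by the 2 scalings, which shared 1952 higher and 1195 lower calls. Counts for gene groups are therefore given on the deposited scale, with those after median-ratio scaling in parentheses. Mean log2 levels of gene lists are on the deposited scale alone. The median-ratio factors, by which FPKM are divided, were 1.1155 to 1.1233 at day 0 in 23-CATA. They were 0.8366 to 0.8708 at day 4 and 0.9369 to 0.9503 at day 6, so list levels of different days include this shift. Differences of at least 1 log2 unit as fitted were rarer, at 2.00% of genes higher and 0.793% lower. The day 6 libraries lay wholly above those of day 4 in 34.1% of genes and wholly below in 12.5%. Most genes named below were chosen for large changes or after their values were seen. Where their days do not overlap, this describes the values and adds no support. Depth, estimated from the spacing of low values, was 14200000 to 16100000 fragments at day 6 and 14100000 to 15800000 at day 4. Day 4 replicate 3 stood farther from its group than the others. The SD over genes of its log2 deviation from its 2 companions was 0.266, against 0.151 to 0.216 in the other 5 libraries.

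Adipocyte markers, of which 21 of 22 were tested, were abundant in these cultures. Their mean log2 level in 23-CATA was 5.17 at day 0, 7.05 at day 2, 8.24 at day 4 and 8.59 at day 6. Fabp4, the fatty acid binding protein of adipocytes, was at 48030, 49273 and 48385 FPKM at day 6 and at 56981, 56284 and 62607 FPKM at day 4. Of the markers of other cell types, 5 of 14 for macrophages (Ptprc, Tyrobp, C1qb, C1qc and Mrc1), 5 of 12 for endothelium (Cdh5 and Kdr among them) and 4 of 12 for epithelium (Epcam and Krt5 among them) were listed at 0 in all 6 libraries. Others of these lists were above 0, up to 86.2 FPKM for the macrophage marker Cd68, 6.82 FPKM for the endothelial marker Egfl7 and 1.11 FPKM for the epithelial marker Krt18. In bulk RNA a change in the number of cells of one type and a change in RNA per cell cannot be told apart.

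**Figure D1:**
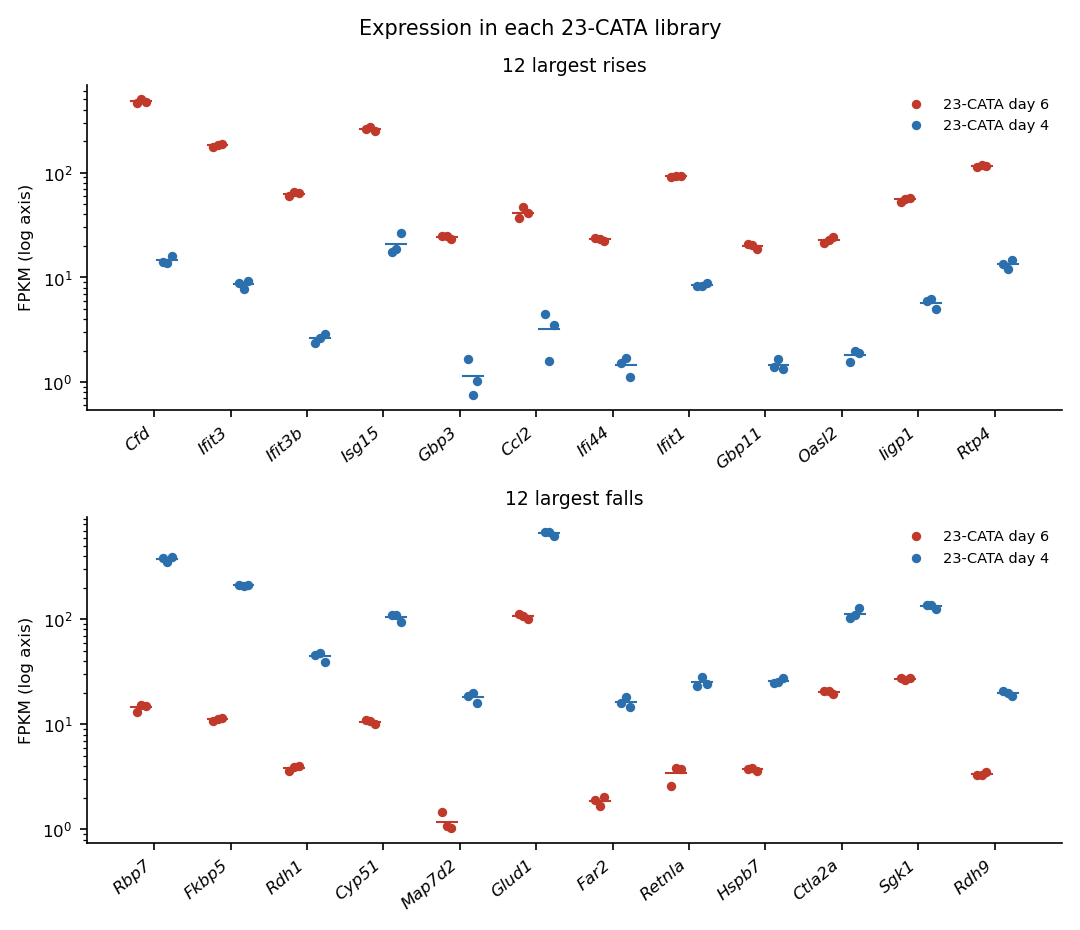
Level of each of the 12 genes with the largest rise and the 12 with the largest fall in 23-CATA cells, in FPKM on a log axis. Each gene has 1 point per library (day 6 left, day 4 right, n = 3 each) and a bar at each group mean. The day 6 and day 4 points of each gene are separate, as the choice of these genes required, and 8 of the 12 rises belong to the interferon-stimulated list.

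Of the lists examined, the interferon-stimulated genes had the highest median change. Of 45 listed genes 41 were tested, 40 rose and 1 fell (39 and 1 after median-ratio scaling), with a median change of 2.13 and a range of -0.63 to 4.15. This list held 38 of the 245 genes that rose by at least 1 log2 unit. The group mean, on the log2 scale, was 4.62 at day 0, 2.53 at day 2, 2.78 at day 4 and 4.95 at day 6. The group was high before induction, low at day 2 and day 4, and high again at day 6.

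The promoters of 4 genes of this group are shown because they hold the response element. The 250 bases before the annotated start of each gene are given 5′ to 3′ on the gene's strand, from RefSeq on GRCm38.p6, with the response element in capitals, searched as 2 copies of GAAA separated by 2 bases of any kind, on either strand. They are chr19:34583279-34583528 for Ifit3 and chr19:34640639-34640888 for Ifit1, both on the plus strand, chr4:156200819-156201068 on the minus strand for Isg15, and chr3:142559794-142560043 on the plus strand for Gbp3.
Ifit3: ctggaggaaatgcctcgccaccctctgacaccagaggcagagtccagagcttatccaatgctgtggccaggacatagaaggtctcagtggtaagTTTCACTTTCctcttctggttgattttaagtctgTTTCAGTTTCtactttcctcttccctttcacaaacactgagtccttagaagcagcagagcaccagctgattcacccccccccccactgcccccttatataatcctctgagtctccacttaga
Ifit1: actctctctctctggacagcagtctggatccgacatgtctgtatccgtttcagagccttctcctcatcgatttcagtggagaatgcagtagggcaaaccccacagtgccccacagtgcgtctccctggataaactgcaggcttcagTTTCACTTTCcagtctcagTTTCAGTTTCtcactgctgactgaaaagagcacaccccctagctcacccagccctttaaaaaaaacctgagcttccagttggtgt
Isg15: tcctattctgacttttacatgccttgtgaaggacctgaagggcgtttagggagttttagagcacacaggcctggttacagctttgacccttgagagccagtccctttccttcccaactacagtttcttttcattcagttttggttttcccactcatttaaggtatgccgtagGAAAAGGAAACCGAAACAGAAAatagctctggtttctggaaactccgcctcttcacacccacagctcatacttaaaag
Gbp3: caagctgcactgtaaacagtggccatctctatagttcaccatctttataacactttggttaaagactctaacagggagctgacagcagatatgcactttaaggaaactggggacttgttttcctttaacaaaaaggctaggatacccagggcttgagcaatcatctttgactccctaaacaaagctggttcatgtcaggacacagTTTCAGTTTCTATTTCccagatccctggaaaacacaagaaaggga
The 2 matches start 156 and 122 bases before the start of Ifit3 and 104 and 85 bases before that of Ifit1. Isg15 has 3 overlapping matches 78 to 66 bases before its start, and Gbp3 has 2 overlapping ones 45 and 39 bases before one of its 2 annotated starts.

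Among the 32 interferon-stimulated genes with a RefSeq promoter window of 300 bases, 18 (56.2%) held at least 1 match to this element on either strand. At least 1 window held it in 3.74% of the 9567 tested genes matched to a promoter. The share was 27.6% of the 174 matched genes that rose by at least 1 log2 unit, and 2.44% of the 82 that fell by as much. Of the 245 genes with such a rise, 38 belong to the interferon-stimulated list, so these sets overlap. A gamma-activated site (TTCNNNGAA), a sterol regulatory element (TCACNCCAC) and the CCAAT box were searched as well. In that order they were held by 25%, 0% and 34.4% of the matched interferon-stimulated genes. The shares were 15.5%, 3.45% and 46% of the matched genes with such a rise, and 8.25%, 1.41% and 43.6% of the matched tested genes. A match is a description of these letters and not of a factor bound there.

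Interferon genes themselves were at or near 0. Of 21 interferon ligand genes in the table, looked up after the other values were known, 17 were at 0 in all 6 libraries and the highest value of the rest was 0.37 FPKM. The receptor genes were looked up in the same way. Ifnar2, a chain of the type I receptor, was at 84.8, 89.5 and 88.4 FPKM at day 6 and at 47.7, 52.2 and 54.5 FPKM at day 4, a change of 0.65 ± 0.09 (adjusted p = 3.93e-08). Ifnar1, its partner chain, was at 18.95, 17.9 and 19.1 FPKM against 14.7, 14.1 and 12.4 FPKM at day 4, a change of 0.31 ± 0.06 (adjusted p = 3.35e-06). Ifngr1 of the type II receptor moved the other way, with 76.4, 74.5 and 76.4 FPKM at day 6 and 116, 110.3 and 113 FPKM at day 4 (-0.69 ± 0.06, adjusted p = 8.83e-09). The receptor chains thus differed in direction, and in none did the 2 days overlap.

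The signalling factors of the pathway rose by different amounts. Irf9, the DNA-binding partner of STAT2, was at 26.3, 28.7 and 29.0 FPKM at day 6 and at 8.0, 8.40 and 6.61 FPKM at day 4, a change of 1.63 ± 0.08 (adjusted p = 6.67e-17). Stat2 was at 14.3, 13.6 and 13.3 FPKM against 3.23, 3.69 and 3.42 FPKM (1.62 ± 0.08, adjusted p = 2.27e-16). Irf7, which amplifies interferon production, was at 36.2, 38.2 and 38.5 FPKM at day 6 and at 6.63, 6.92 and 7.71 FPKM at day 4 (2.15 ± 0.10, adjusted p = 3.28e-17). Usp18, which dampens signalling at the type I receptor, was at 48.9, 48.5 and 48.0 FPKM against 12.2, 12.1 and 12.1 FPKM (1.80 ± 0.14, adjusted p = 1.88e-12). Every day 6 library was above every day 4 library in these 4 genes.

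Effector genes carried the largest changes. Ifit3, a member of the IFIT family that binds viral RNA, was at 177, 184 and 187 FPKM at day 6 and at 8.86, 7.72 and 9.21 FPKM at day 4, a change of 4.15 ± 0.12 (adjusted p = 2.28e-22). Ifit1 of the same family was at 91.3, 92.4 and 93.9 FPKM against 8.21, 8.34 and 8.94 FPKM (3.19 ± 0.08, adjusted p = 2.88e-23). Isg15, a ubiquitin-like modifier, was at 259, 274 and 252 FPKM at day 6 and at 17.6, 18.9 and 26.7 FPKM at day 4 (3.49 ± 0.15, adjusted p = 5.41e-18). These 3 genes were at 160.5, 58.8 and 155 FPKM on average at day 0, each below its day 6 mean of 183, 92.5 and 262 FPKM. Gbp3, a guanylate-binding GTPase, was at 24.6, 24.9 and 23.2 FPKM against 1.67, 0.75 and 1.03 FPKM (3.46 ± 0.12, adjusted p = 1.33e-20). Iigp1, an immunity-related GTPase, was at 52.96, 56.2 and 57.6 FPKM at day 6 and at 5.93, 6.17 and 5.03 FPKM at day 4 (2.97 ± 0.09, adjusted p = 3.51e-21). Bst2, which tethers budding viruses to the cell, reached 485, 522 and 533 FPKM at day 6 and was at 69.6, 61.2 and 78.3 FPKM at day 4 (2.76 ± 0.16, adjusted p = 3.74e-15). In each of these 6 genes the lowest day 6 library stood several times above the highest day 4 library.

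The remaining large effector rises were of the same kind. Ifi44 changed by 3.19 ± 0.12, Rtp4 by 2.92 ± 0.10 and Oasl2, of the oligoadenylate synthetase family, by 2.97 ± 0.09. Ifit3b at 4.02 ± 0.13, Gbp11 at 2.98 ± 0.11 and Oas1a at 2.72 ± 0.13 have near-identical relatives, with which reads may be shared. Ifit3 is such a relative of Ifit3b, so the values of Ifit3 carry the same uncertainty and the rises of both may not be separate. The cytosolic RNA sensors Ddx58, Dhx58 and Ifih1 rose by 1.78 ± 0.07, 2.25 ± 0.07 and 1.17 ± 0.07. Only Ifi204 fell, with 52.4, 51.4 and 47.0 FPKM at day 6 and 71.5, 73.7 and 71.7 FPKM at day 4 (-0.63 ± 0.09, adjusted p = 1.68e-05). Ifi27 was called on the deposited scale (adjusted p = 0.00947) but not after median-ratio scaling, nor without day 4 replicate 2 or day 6 replicate 2 (adjusted p = 0.0548 and 0.0541). Oasl1, Rsad2, Cmpk2 and Trim25 stayed below the filter with at most 1.13 FPKM.

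Genes of class I antigen presentation were higher at day 6, 19 of 21 tested (18 after median-ratio scaling) and none lower, with a median change of 0.82. Psmb8, a proteasome subunit swapped in under interferon, was at 12.9, 15.2 and 11.7 FPKM at day 6 and at 1.69, 0.97 and 1.18 FPKM at day 4 (2.54 ± 0.14, adjusted p = 2.39e-15). B2m, the invariant chain of class I molecules, was at 3184, 3394 and 3774 FPKM against 1486, 1574 and 1544 FPKM (1.05 ± 0.10, adjusted p = 3.25e-11). Tap1, a subunit of the peptide transporter, rose by 0.95 ± 0.09 and its partner Tap2 by 0.80 ± 0.09. Heavy chains H2-K1 (1.58 ± 0.13), H2-Q4 (1.47 ± 0.16) and H2-T22 (1.44 ± 0.10) rose too, but class I genes resemble each other closely and their values are uncertain one by one. Irf1, a transcription factor of this pathway, was at 34.5, 35.7 and 31.8 FPKM at day 6 and at 13.6, 14.4 and 15.6 FPKM at day 4 (1.06 ± 0.07, adjusted p = 1.27e-13).

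Chemokines and cytokines followed, with 15 of 22 tested genes higher and 1 lower (14 and 1) and a median change of 0.58. Ccl2, which attracts monocytes, was at 37.3, 46.7 and 41.0 FPKM at day 6 and at 4.47, 1.61 and 3.49 FPKM at day 4 (3.30 ± 0.20, adjusted p = 2.56e-14). Ccl7 was at 42.1, 47.7 and 51.4 FPKM against 5.06, 6.53 and 4.36 FPKM (2.83 ± 0.15, adjusted p = 7.09e-16). Cxcl1, which attracts neutrophils, was at 185, 188 and 188 FPKM against 34.8, 38.8 and 41.2 FPKM (2.15 ± 0.10, adjusted p = 1.43e-17). All day 6 libraries exceeded all day 4 libraries in these 3 genes. Their day 0 means were far higher, at 287, 408 and 614 FPKM. Il1rn, the interleukin 1 receptor antagonist, fell (-0.95 ± 0.06, adjusted p = 1.26e-12).

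Acute phase and complement genes divided, with 14 of 24 tested higher and 4 lower (12 and 4). Cfd, adipsin, is the complement factor D protease that adipocytes secrete, and it had the largest rise of any named gene. It was at 466, 501 and 470 FPKM at day 6 and at 14.1, 13.6 and 15.9 FPKM at day 4 (4.84 ± 0.13, adjusted p = 1.08e-22), and averaged 38.3 FPKM at day 0 and 5.52 FPKM at day 2. Cfb, factor B of the same alternative complement pathway, was at 34.8, 38.6 and 38.5 FPKM against 4.87, 4.76 and 4.00 FPKM (2.68 ± 0.08, adjusted p = 1.27e-21). Saa3, an acute phase serum amyloid, was at 34.3, 30.4 and 29.9 FPKM against 5.48, 4.49 and 7.88 FPKM (2.14 ± 0.26, adjusted p = 4.08e-08). Lcn2, Orm1, Orm2 and Hp, also acute phase genes, were the 4 that fell. Lcn2 was at 834, 927 and 815 FPKM at day 6 and at 1601, 1588 and 1793 FPKM at day 4 (-1.06 ± 0.13, adjusted p = 4.52e-07). Hp fell least of the 4, by 0.60 on the log2 scale with an adjusted p of 0.0118, and was not called without day 4 replicate 3 (adjusted p = 0.096) or with a pseudocount of 0.1 in place of 1 (adjusted p = 0.245).

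Adipokines, 20 tested, gave 9 higher and 6 lower genes (9 and 7). Adipoq, the insulin-sensitizing adiponectin, was at 2102, 2165 and 2193 FPKM at day 6 and at 1419, 1428 and 1614 FPKM at day 4 (0.43 ± 0.09, adjusted p = 1.59e-05). Retn, resistin, was at 279.9, 307 and 275 FPKM against 95.9, 90.9 and 115 FPKM (1.40 ± 0.13, adjusted p = 6.32e-11). Agt, the angiotensin precursor, moved the other way with 149, 156 and 159 FPKM at day 6 and 722, 683 and 793 FPKM at day 4 (-2.34 ± 0.14, adjusted p = 3.96e-14). In these 3 genes the days did not overlap, as was so upward in 34.1% and downward in 12.5% of all genes.

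**Figure D2:**
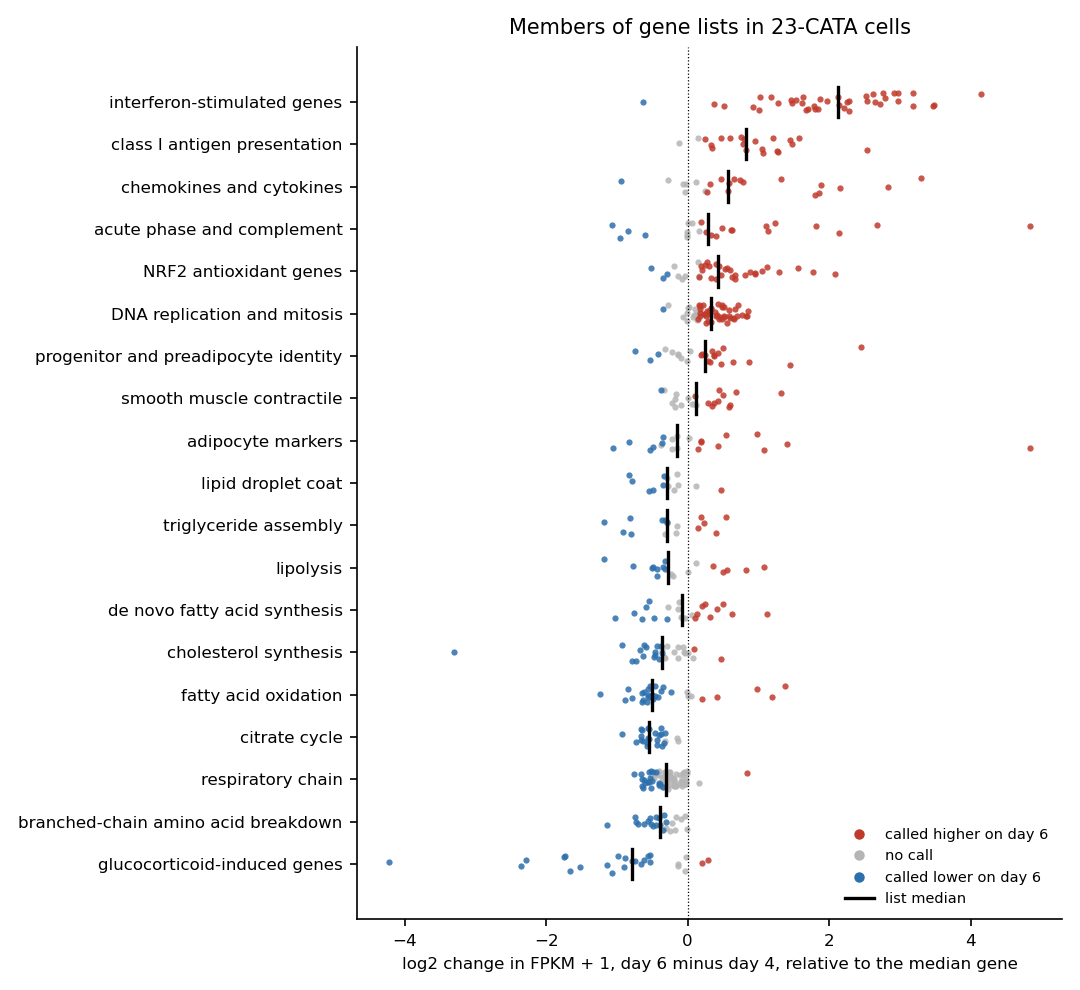
Relative log2 change of every tested member of selected gene lists, day 6 minus day 4 in 23-CATA, with 1 point per gene and a bar at the list median. Interferon-stimulated genes reach from -0.63 to 4.15, while medians of the glucocorticoid-induced, fatty acid oxidation and citrate cycle lists lie at -0.79, -0.50 and -0.55.

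Glucocorticoid-induced genes were the group with the lowest median among the lists with a pathway name, at -0.79. Of 25 tested, 2 rose and 19 fell (1 and 19). Their mean log2 level was 5.00 at day 0, 6.55 at day 2, 6.23 at day 4 and 5.35 at day 6. Fkbp5 was at 10.9, 11.3 and 11.6 FPKM at day 6 and at 211, 206 and 213 FPKM at day 4, a change of -4.22 ± 0.06 (adjusted p = 1.43e-28), and averaged 2.77 FPKM at day 0 and 364 FPKM at day 2. Sgk1, a kinase that regulates ion transport, was at 27.6, 26.3 and 27.6 FPKM against 138, 136 and 125 FPKM (-2.36 ± 0.06, adjusted p = 1.78e-23). Fam107a was at 8.82, 8.44 and 10.2 FPKM against 30.7, 33.7 and 27.2 FPKM (-1.75 ± 0.06, adjusted p = 6.96e-19). Sult1a1, a sulfotransferase, was at 30.9, 30.9 and 33.6 FPKM against 142, 146 and 153 FPKM (-2.29 ± 0.11, adjusted p = 1.16e-15). Nr3c1, the receptor itself, rose slightly (0.28 ± 0.10, adjusted p = 0.00265), with 25.0, 24.8 and 27.9 FPKM at day 6 and 21.7, 21.6 and 15.8 FPKM at day 4.

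Metal-binding Mt1 and Mt2 fell as well, by 1.66 and 1.52 on the log2 scale. Mt1 was at 1033, 1121 and 1054 FPKM at day 6 and at 2842, 2936 and 3662 FPKM at day 4, but it shares sequence with Mt2 and the counts of both are uncertain. Of the 15 genes tested for metallothioneins and zinc transport, 6 rose and 3 fell (2 and 3), and 3 rose without day 4 replicate 3. Among clock genes, 12 of 18 rose and 3 fell (9 and 5). Per1 fell (-0.66 ± 0.07, adjusted p = 2.73e-07) and so did Nfil3 (-1.34 ± 0.08, adjusted p = 2.51e-13). Dbp, an output factor of the clock, rose to 13.6, 15.3 and 15.9 FPKM, against 3.60, 3.46 and 5.33 FPKM at day 4 (1.54 ± 0.18, adjusted p = 8.72e-09), and Per3 and Bhlhe40 rose by 1.25 ± 0.10 and 1.11 ± 0.06.

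The largest fall of any named gene was that of Rbp7. This gene, a cellular retinol-binding protein that is a known PPARγ target, was at 13.2, 15.5 and 14.8 FPKM at day 6 and at 381, 348 and 390 FPKM at day 4 (-4.71 ± 0.27, adjusted p = 1.36e-14). It averaged 0.383 FPKM at day 0 and 13.4 FPKM at day 2, so its high level was seen at day 4 alone. Rdh1 fell by 3.33 and Rdh9 by 2.36 on the log2 scale, but these dehydrogenases are close paralogs, and neither is in the retinoid list. Of that list, the alcohol dehydrogenase genes Adh7 (1.62 ± 0.11) and Adh1 (0.52 ± 0.10) and the retinoic acid receptor gene Rarg (0.53 ± 0.06) rose. Over its 17 tested genes 6 rose and 4 fell (6 and 5), with 2 falls without day 4 replicate 3, day 6 replicate 1 or day 6 replicate 3, and its median of -0.02 lay at that of all genes.

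Other large falls were single genes of varied function. Glud1, mitochondrial glutamate dehydrogenase, was at 112, 108 and 101 FPKM at day 6 and at 676, 677 and 619 FPKM at day 4 (-2.72 ± 0.05, adjusted p = 8e-26). Retnla, a resistin-like secreted protein, was at 2.6, 3.86 and 3.77 FPKM against 23.4, 28.4 and 24.1 FPKM (-2.70 ± 0.16, adjusted p = 9.02e-14). Hspb7, a small heat shock protein, was at 3.76, 3.86 and 3.58 FPKM against 24.7, 25.3 and 27.7 FPKM (-2.62 ± 0.26, adjusted p = 6.8e-09). The others were Map7d2 (-3.25 ± 0.10), Far2 (-2.70 ± 0.12), which makes fatty alcohols, and Ctla2a (-2.52 ± 0.16).

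The master regulators of fat cell identity showed small differences. Pparg was at 149, 159.8 and 149 FPKM at day 6 and at 137, 137 and 144 FPKM at day 4 (0.02 ± 0.08, adjusted p = 0.187), and was not called. Cebpa was at 307, 308 and 295 FPKM against 327, 306 and 352 FPKM (-0.22 ± 0.08, adjusted p = 0.309), and was called lower only after median-ratio scaling. Rxra, the partner of PPARγ, fell (-0.37 ± 0.06, adjusted p = 0.000803). Cebpd of the early wave fell to 30.9, 31.6 and 32.1 FPKM, against 41.9, 43.1 and 51.8 FPKM at day 4 (-0.62 ± 0.12, adjusted p = 0.00116). Cebpb was at 87.7, 85.6 and 85.5 FPKM at day 6 and at 169, 122 and 468 FPKM at day 4 (-1.41 ± 0.42, adjusted p = 0.0155), with the highest value in day 4 replicate 3. Without that library its change was -0.83 and was not called (adjusted p = 0.184), nor was it with the compared groups fitted alone (adjusted p = 0.0505). Klf4 rose (0.50 ± 0.07, adjusted p = 1.23e-08). Over 24 adipogenic transcription factors 5 rose and 7 fell (2 and 9), and the rises numbered 2 without day 4 replicate 3 and 3 without day 6 replicate 1.

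Genes for proteins of the lipid droplet fell more often than they rose, 6 against 1 of 13 tested (8 and 1). Cidec, which fuses droplets, was at 1947, 2031 and 2050 FPKM at day 6 and at 3252, 3115 and 3568 FPKM at day 4 (-0.83 ± 0.10, adjusted p = 4.5e-07). Cidea, its relative in brown fat, was at 129, 140.5 and 137 FPKM against 91.5, 81.1 and 98.1 FPKM (0.47 ± 0.10, adjusted p = 3.01e-05). With a pseudocount of 0.1 neither gene was called (adjusted p = 0.057 for Cidec and 0.0607 for Cidea). Plin1, the main droplet coat of adipocytes, was at 681, 668 and 665 FPKM against 695, 689.6 and 694 FPKM (-0.16 ± 0.06, adjusted p = 0.585) and was called lower only after median-ratio scaling. For Fabp4 the relative change was -0.38 ± 0.26 (adjusted p = 0.441). Cd36, the fatty acid transporter, and Lpl, lipoprotein lipase, changed by -0.15 ± 0.09 (adjusted p = 0.751) and 0.19 ± 0.07 (adjusted p = 0.00168), and Lpl was not called after median-ratio scaling (adjusted p = 0.0863) or with the compared groups fitted alone (adjusted p = 0.0826).

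Lipid uptake genes gave 6 higher and 7 lower of 19 tested (5 and 8). The apolipoprotein genes Apoc1 and Apoe rose, Apoc1 to 147, 145 and 121 FPKM, against 21.1, 21.2 and 18.1 FPKM at day 4 (2.6 ± 0.29, adjusted p = 7.97e-09). Acsl1, which activates fatty acids, fell to 1722, 1696 and 1741 FPKM, against 2420, 2430.2 and 2052 FPKM (-0.53 ± 0.06, adjusted p = 4.65e-06). Triglyceride assembly gave 5 higher and 7 lower of 17 (3 and 11). Agpat2, an acyltransferase of that pathway, was at 643, 682 and 623 FPKM against 1302, 1266 and 1559 FPKM (-1.19 ± 0.10, adjusted p = 6.19e-10), whereas Dgat2, which adds the last fatty acid, rose slightly (0.19 ± 0.06, adjusted p = 0.000267). Lipolysis gave 5 higher and 9 lower of 18 (5 and 10). The adrenergic receptor gene Adrb3 rose to 5.37, 5.05 and 5.51 FPKM, against 1.55, 2.03 and 1.75 FPKM at day 4 (1.08 ± 0.10, adjusted p = 3.45e-11). Pnpla2, the lipase of the first step, and its coactivator Abhd5 fell by 0.49 and 0.77 on the log2 scale. Fatty acid synthesis gave 9 higher and 7 lower of 23 (7 and 8), with Fads2 at 1.12 ± 0.10 and Idh1 at -1.03 ± 0.09.

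Over the adipocyte markers as a list, 9 rose and 6 fell (7 and 9). Their mean and their median moved in different directions. The mean log2 level, on the deposited scale, was 8.59 at day 6 and 8.24 at day 4. The median change, relative to that of all genes, was -0.15, with Cfd far above the other markers. Their summed level was 63425, 64969 and 64096 FPKM at day 6 and 74321, 73224 and 80037 FPKM at day 4, a sum in which Fabp4 is the largest term. Thermogenic genes gave 6 higher and 3 lower of 15 (6 and 4), with Cox8b at 293, 261 and 256 FPKM at day 6 and 143, 121 and 155 FPKM at day 4 (0.84 ± 0.22, adjusted p = 0.00107). The other 11 of the 26 listed thermogenic genes stayed below the filter, at 0.95 FPKM or less. Among them Ucp1 reached at most 0.1 FPKM and Prdm16 0.02 FPKM, and Dio2 and Zic1 were at 0 in all 6 libraries. Genes of the insulin response gave 4 higher and 6 lower of 21 (2 and 8), with Irs1, a receptor substrate, at 0.67 ± 0.11 and Pik3r1, a kinase subunit, at -0.76 ± 0.08. Glycolysis gave 2 higher and 8 lower of 19 (1 and 12), and Hk2, a hexokinase, fell by 0.78 on the log2 scale.

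Most tested genes of fatty acid oxidation were lower at day 6. They gave 5 higher and 22 lower of 30 tested (5 and 22), with a median change of -0.50. Acadm, which takes the first step on medium-chain fatty acids, was at 626, 652 and 633 FPKM at day 6 and at 1413, 1426 and 1347 FPKM at day 4 (-1.24 ± 0.07, adjusted p = 1.35e-13). Acadl, for long chains, was at 260.3, 264 and 246 FPKM against 427, 407 and 403 FPKM (-0.79 ± 0.06, adjusted p = 9.86e-11). The exceptions included Ehhadh, a peroxisomal enzyme, at 11.5, 10.2 and 10.7 FPKM against 3.74, 3.45 and 4.18 FPKM (1.19 ± 0.07, adjusted p = 1.7e-15). Acaa1b, another peroxisomal enzyme with a near-identical relative, and Cpt1a, a carnitine transferase of the outer mitochondrial membrane, rose by 1.38 ± 0.17 and 0.42 ± 0.10.

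Citrate cycle genes gave 0 higher and 22 lower of 25 (0 and 23), median -0.55. Dlat, a subunit of pyruvate dehydrogenase, was at 111, 114 and 104 FPKM at day 6 and at 206, 201 and 174 FPKM at day 4 (-0.93 ± 0.06, adjusted p = 3.73e-12). Branched-chain amino acid breakdown gave 0 higher and 16 lower of 24 (0 and 19), median -0.40, with Bcat2, the mitochondrial transaminase, at 302, 325 and 291 FPKM against 598, 565 and 726 FPKM (-1.15 ± 0.11, adjusted p = 3.36e-09). The respiratory chain gave 1 higher and 20 lower of 75 (1 and 32), median -0.31, with 12 lower without day 4 replicate 3. The days overlapped in its mean log2 level, at 8.758, 8.875 and 8.747 at day 6 and at 8.917, 8.856 and 9.15 at day 4. Cycs, cytochrome c, was at 383, 402 and 400.5 FPKM against 585, 596 and 540.0 FPKM (-0.65 ± 0.11, adjusted p = 0.000269). Genes for subunits of the mitochondrial ribosome gave 1 higher and 4 lower of 58 (0 and 26), median -0.21. Their cytosolic counterparts gave 3 higher and 0 lower of 76 (0 and 1), median 0.02. That count depended on the setting, with 27 higher and 1 lower after quantile normalization. It was 7 higher with the compared groups fitted alone and 5 higher without day 4 replicate 3. By level the cells were still far above the uninduced state, since the mean log2 level of the citrate cycle list was 6.03 at day 0, 7.73 at day 2, 8.41 at day 4 and 8.03 at day 6.

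Cholesterol synthesis fell, with 2 genes higher and 15 lower of 29 (1 and 19) and a median of -0.36. Cyp51, the sterol demethylase, was at 10.95, 10.7 and 10.0 FPKM at day 6 and at 111, 109 and 94.4 FPKM at day 4 (-3.30 ± 0.07, adjusted p = 1.49e-25). Hmgcs1, at the head of the pathway, was at 134, 134 and 136 FPKM against 246, 252 and 215 FPKM (-0.92 ± 0.06, adjusted p = 1.52e-12). Nsdhl and Dhcr7 fell by 0.79 and 0.72 on the log2 scale. The ubiquitin ligase gene Mylip rose (0.47 ± 0.08, adjusted p = 4.12e-07).

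**Figure D3:**
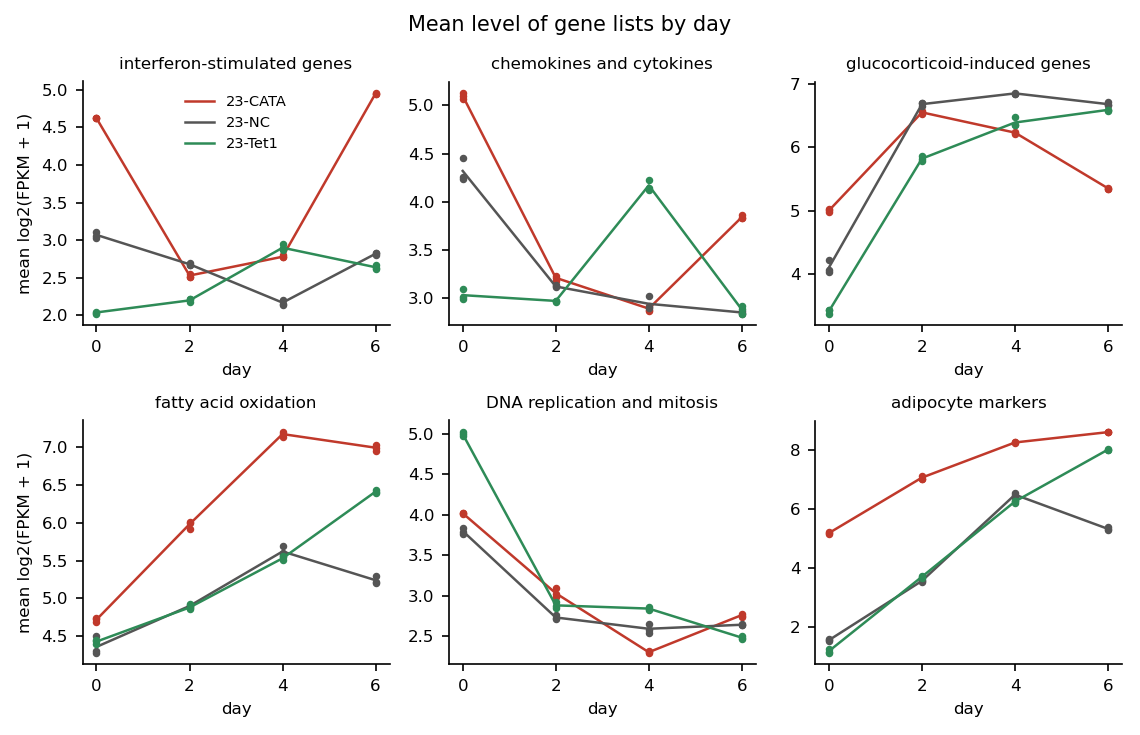
Mean log2(FPKM + 1) of 6 gene lists at days 0, 2, 4 and 6 in 23-CATA, 23-NC and 23-Tet1. Each population has 1 line through its group means and 1 point per library (n = 3 per day). In 23-CATA the interferon-stimulated list lies at 4.62, 2.53, 2.78 and 4.95 over the 4 days and the glucocorticoid-induced list at 5.00, 6.55, 6.23 and 5.35.

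Genes of DNA replication and mitosis were low but higher at day 6, 43 of 55 with 1 lower (33 and 1), median 0.32. The list mean was 4.02 at day 0, 3.03 at day 2, 2.3 at day 4 and 2.76 at day 6. Top2a, the topoisomerase of dividing cells, was at 12.7, 13.0 and 13.5 FPKM at day 6 and at 6.42, 6.90 and 5.59 FPKM at day 4 (0.84 ± 0.08, adjusted p = 1.6e-10), against 46.6 FPKM on average at day 0. Mcm5, of the replicative helicase, was at 6.14, 5.95 and 6.94 FPKM against 2.55, 2.53 and 3.28 FPKM (0.85 ± 0.09, adjusted p = 4.32e-10). Among p53 target genes 13 of 21 rose and 4 fell (10 and 5). The direction differed within that list, with Gdf15 at 1.77 ± 0.20 and Gadd45a, a growth arrest gene, at 1.33 ± 0.12, but the cyclin-dependent kinase inhibitor Cdkn1a at 185, 194 and 179 FPKM at day 6 and 265, 246 and 264 FPKM at day 4 (-0.59 ± 0.06, adjusted p = 4.69e-07).

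NRF2 antioxidant genes rose in 27 of 36 cases and fell in 3 (21 and 3), with a median of 0.43. Hmox1, heme oxygenase, was at 575, 591 and 659.9 FPKM at day 6 and at 187, 192 and 193 FPKM at day 4 (1.56 ± 0.18, adjusted p = 1.53e-08). Gclm, a regulatory subunit of glutathione synthesis, was at 60.8, 61.9 and 55.1 FPKM against 24.0, 21.4 and 20.3 FPKM (1.29 ± 0.12, adjusted p = 5.19e-11), while its catalytic partner Gclc fell (-0.52 ± 0.12, adjusted p = 0.00773). Gsta1 and Gsta2, with values near 10 FPKM or below, are close paralogs. Immediate early genes gave 15 higher and 5 lower of 29 (14 and 7), with Ier3 at 1.44 ± 0.09 and Nr4a1 at -0.93 ± 0.09.

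Calls in the stress lists went in both directions, as over all genes, of which 28.4% were higher and 9.77% lower (16.0% and 17.8%). The list medians lay near that of all genes, at 0.007 for ER stress, 0.016 for heat shock, 0.03 for hypoxia and 0.023 for the lysosome. Genes of the ER stress response gave 8 higher and 5 lower of 35 (5 and 10). Ddit3, a factor induced by that response, was at 207, 219 and 196 FPKM at day 6 and at 90.6, 84.6 and 115 FPKM at day 4 (0.99 ± 0.15, adjusted p = 8.66e-07), while the chaperone gene Dnajb9 fell (-0.70 ± 0.09, adjusted p = 1.75e-06). Heat shock chaperones gave 11 higher and 4 lower of 32 (9 and 7). Hypoxia genes gave 10 higher and 5 lower of 22 (8 and 6), with Vegfa, the vascular growth factor, at 0.76 ± 0.07 and Bnip3 at -0.66 ± 0.13. Lysosomal genes gave 14 higher and 2 lower of 33 (9 and 4), with the acid lipase Lipa at 0.82 ± 0.06.

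Markers of mesenchymal progenitors rose in 15 of 25 cases and fell in 3 (12 and 4), with a median of 0.25. Ly6a, the Sca-1 surface antigen, was at 763, 831 and 642 FPKM at day 6 and at 115, 112 and 151 FPKM at day 4 (2.45 ± 0.21, adjusted p = 3.05e-11), after 1142 FPKM on average at day 0 and 125 FPKM at day 2. Ly6a is itself inducible by interferon. F3, tissue factor, a marker of a stromal subset, fell (-0.75 ± 0.06, adjusted p = 4.07e-10). Tendon markers rose in 7 of 7 cases (4 of 7), with the summed level of the list at 202, 179.7 and 194 FPKM at day 6 and at 109.7, 117 and 113 FPKM at day 4. Dcn, decorin, was at 11.8, 11.98 and 11.4 FPKM against 3.41, 3.63 and 2.90 FPKM (1.45 ± 0.08, adjusted p = 2.49e-16), and was at 41.4 FPKM on average at day 0. Spp1, osteopontin, accounted for nearly all of the bone list, at 799, 842 and 826 FPKM against 362, 376 and 431 FPKM (0.97 ± 0.07, adjusted p = 4.65e-13). Bone markers rose in 4 of 8 cases and cartilage markers in 3 of 8, with no falls (3 and 0, and 3 and 1). Their medians were 0.34 and -0.11. Over all genes 28.4% were called higher (16.0%), so in lists this short the counts say little about a lineage. Dcn is in both the progenitor and the tendon list.

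Most markers of other cell types stayed below the filter. Of macrophage markers 3 of 14 were tested and 2 rose (1). Their sum was 82.6, 81.9 and 91.2 FPKM at day 6 and 55.1, 54.8 and 62.1 FPKM at day 4, nearly all of it Cd68 at 78.0, 76.2 and 86.2 FPKM against 51.8, 51.7 and 58.2 FPKM. Cd68 was not called after median-ratio scaling (adjusted p = 0.0779) or without day 6 replicate 3 (adjusted p = 0.0625). Cd14, the other that rose, was at 4.11, 5.23 and 4.9 FPKM at day 6 and at 3.21, 2.87 and 3.58 FPKM at day 4, and was not called after quantile normalization (adjusted p = 0.133). Lyz2 reached at most 0.24 FPKM. The 11 untested macrophage markers were at 0.18 FPKM or below. Endothelial and epithelial markers, 3 and 2 tested of 12 each, gave no call, with sums of 7.32 to 8.25 and 1.16 to 1.5 FPKM at day 6 and 5.59 to 7.15 and 0.72 to 1.34 FPKM at day 4. Skeletal muscle markers were tested for 2 of 16 genes, of which 1 rose, and the untested ones reached at most 0.75 FPKM.

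Genes of the extracellular matrix were mixed. Collagens gave 8 higher and 6 lower of 25 (6 and 10). Fibrillar Col1a2 was at 248, 231 and 213 FPKM at day 6 and at 140.4, 142 and 146 FPKM at day 4 (0.58 ± 0.08, adjusted p = 7.65e-08), and basement membrane Col4a1 at 242, 225 and 222 FPKM against 440.3, 446 and 400.5 FPKM (-1.01 ± 0.10, adjusted p = 9.76e-09). Elastic fibre genes gave 10 higher and 1 lower of 20 (8 and 1), with Fbln5 at 0.77 ± 0.05 and the crosslinking enzyme Lox at -0.58 ± 0.09. Matricellular genes gave 13 higher and 2 lower of 24 (9 and 4), and smooth muscle contractile genes 11 higher and 1 lower of 22 (9 and 2), with Acta2, smooth muscle actin, at 21.8, 25.4 and 24.8 FPKM against 7.69, 7.29 and 9.96 FPKM (1.32 ± 0.16, adjusted p = 1.31e-08). Matrix proteases gave 12 higher and 4 lower of 27 (8 and 6), with Mmp11 at 1.46 ± 0.08 and Adam12 at -1.13 ± 0.12. Protease inhibitors gave 15 higher and 5 lower of 25 (11 and 5), with Serpinb1a at 1.5 ± 0.11 and Serpina3n at -1.46 ± 0.07. Genes of the WNT pathway gave 6 higher and 5 lower of 21 (6 and 9), and 3 lower without day 6 replicate 1. Its agonist Rspo2 was at 29.0, 28.8 and 28.4 FPKM at day 6 and at 5.26, 5.73 and 5.11 FPKM at day 4 (2.11 ± 0.07, adjusted p = 1.87e-21). The BMP and TGF-beta pathway gave 15 higher and 4 lower of 29 (10 and 6), imprinted genes 7 higher and 0 lower of 16 (5 and 0), and HOX genes 2 and 0 of 10 (2 and 2).

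The methylcytosine list gave 7 higher and 3 lower of 19 (6 and 3). It holds genes that write, read or remove this mark and others only linked to it, such as Idh1 and Ogt. Its highest and lowest changes were those of Gadd45a (1.33) and Idh1 (-1.03). Tet1, the dioxygenase named in the study's title, was at 5.96, 5.75 and 6.24 FPKM at day 6 and at 9.73, 10.97 and 6.80 FPKM at day 4 (-0.63 ± 0.11, adjusted p = 0.00044), with the lowest day 4 value in replicate 3. In 23-NC it lay between 0 and 0.03 FPKM at both days, and in 23-Tet1 at 4.48, 4.04 and 4.05 FPKM at day 6 and at 5.38, 4.66 and 5.54 FPKM at day 4. Tet2 was at 2.85, 2.42 and 3.13 FPKM at day 6 and at 3.15, 3.46 and 1.99 FPKM at day 4 (-0.12 ± 0.16, adjusted p = 0.975). Tet3 gave -0.22 ± 0.15 (adjusted p = 0.617), and neither was called. The maintenance methyltransferase Dnmt1 and its partner Uhrf1 rose by 0.38 ± 0.08 and 0.34 ± 0.07, and Ogt, which associates with TET proteins, by 0.53 ± 0.10.

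The same step was then set against that of the other populations, with the difference between the steps tested for every gene. In 23-NC 31.6% of genes were higher and 29.0% lower at day 6, and in 23-Tet1 26.8% were higher and 30.0% lower. The 23-CATA step was higher than the 23-NC step in 28.7% of genes and lower in 17.3% (22% and 22.6% after median-ratio scaling). Against 23-Tet1 it was higher in 34.5% and lower in 19.4% (24.3% and 26.7%). Step differences are given relative to their medians over all genes, 0.099 and 0.143.

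The step of the interferon-stimulated genes was higher in 23-CATA than in either of the others. In 23-NC 31 of the 41 genes rose and 2 fell, with a median of 0.57, and the difference was called higher for 40 genes and lower for 0 (39 and 0). In 23-Tet1 7 rose and 21 fell, with a median of -0.16, and the difference was called higher for 39 and lower for 0 (39 and 0). Ifit3 averaged 183 ± 5.43 FPKM at day 6 and 8.60 ± 0.78 FPKM at day 4 in 23-CATA, 15.8 and 1.29 FPKM in 23-NC, and 6.90 and 14.9 FPKM in 23-Tet1 (SD, n = 3 each). Its step difference was 1.28 ± 0.16 against 23-NC (adjusted p = 6.38e-08) and 5.13 ± 0.16 against 23-Tet1 (adjusted p = 3.79e-21). Class I genes rose in 14 of 21 cases in 23-NC, and there the difference was called higher for 11 and lower for 1 (9 and 1), against 18 and 0 (17 and 0) for 23-Tet1.

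Chemokines moved in the opposite direction in 23-Tet1. There 3 of 22 rose and 14 fell, with the difference called higher for 16 and lower for 2 (15 and 2). Ccl2 averaged 41.7 FPKM at day 6 and 3.19 FPKM at day 4 in 23-CATA, and 1.98 and 150.8 FPKM in 23-Tet1, a step difference of 8.94 ± 0.29 (adjusted p = 5.18e-21). The corresponding difference was 7.69 ± 0.37 for Saa3 (adjusted p = 5.94e-17), 6.73 ± 0.21 for Ccl7 (adjusted p = 2.91e-21) and 6.55 ± 0.14 for Cxcl1 (adjusted p = 3.49e-25). In all 4 genes 23-CATA was the higher population at day 6 and 23-Tet1 the higher one at day 4. Against 23-NC the largest higher differences were those of Saa3 (4.33 ± 0.37), Cfd (4.22 ± 0.19), Car3 (4.01 ± 0.14), Ifi27l2a (3.59 ± 0.24), Camp (3.58 ± 0.25) and Scd1 (3.34 ± 0.13). Scd1, a fatty acid desaturase, averaged 3128 ± 123 FPKM at day 6 and 2657 ± 429.8 FPKM at day 4 in 23-CATA, and 184 ± 10.5 and 1701 ± 185 FPKM in 23-NC.

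The step of many glucocorticoid-induced genes was lower in 23-CATA than in the others. In 23-NC 8 of 25 rose and 12 fell (median -0.05), and the difference was called higher for 5 and lower for 13 (4 and 14). In 23-Tet1 12 rose and 8 fell (median 0.18), and it was called higher for 4 and lower for 18 (2 and 18). Fkbp5 averaged 11.2 FPKM at day 6 and 210.2 FPKM at day 4 in 23-CATA, 315 and 597 FPKM in 23-NC, and 362 and 255 FPKM in 23-Tet1, with step differences of -3.29 ± 0.09 (adjusted p = 1.59e-21) and -4.75 ± 0.09 (adjusted p = 1e-25). Rbp7 averaged 14.5 and 373 FPKM in 23-CATA, 8.69 and 3.97 FPKM in 23-NC and 14.9 and 2.05 FPKM in 23-Tet1, day 6 before day 4, with differences of -5.66 ± 0.38 (adjusted p = 8.29e-13) and -7.27 ± 0.38 (adjusted p = 7.85e-16). Hspb7 fell in 23-CATA but averaged 27.7 FPKM at day 6 and 3.25 FPKM at day 4 in 23-NC, a difference of -5.36 ± 0.37 (adjusted p = 2.21e-12). Other chaperone genes, Cryab (-3.45 ± 0.21) and Hspa1b (-3.28 ± 0.28, a gene with a near-identical copy), and Aldh1l2 (-3.06 ± 0.26) completed the largest lower differences from 23-NC. Against 23-Tet1 they were completed by Acsm3 (-5.69 ± 0.36), Apoc3 (-5.51 ± 0.24) and Cyp2e1 (-5.47 ± 0.12), all of which were higher at day 6 than at day 4 in 23-Tet1.

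**Figure D4:**
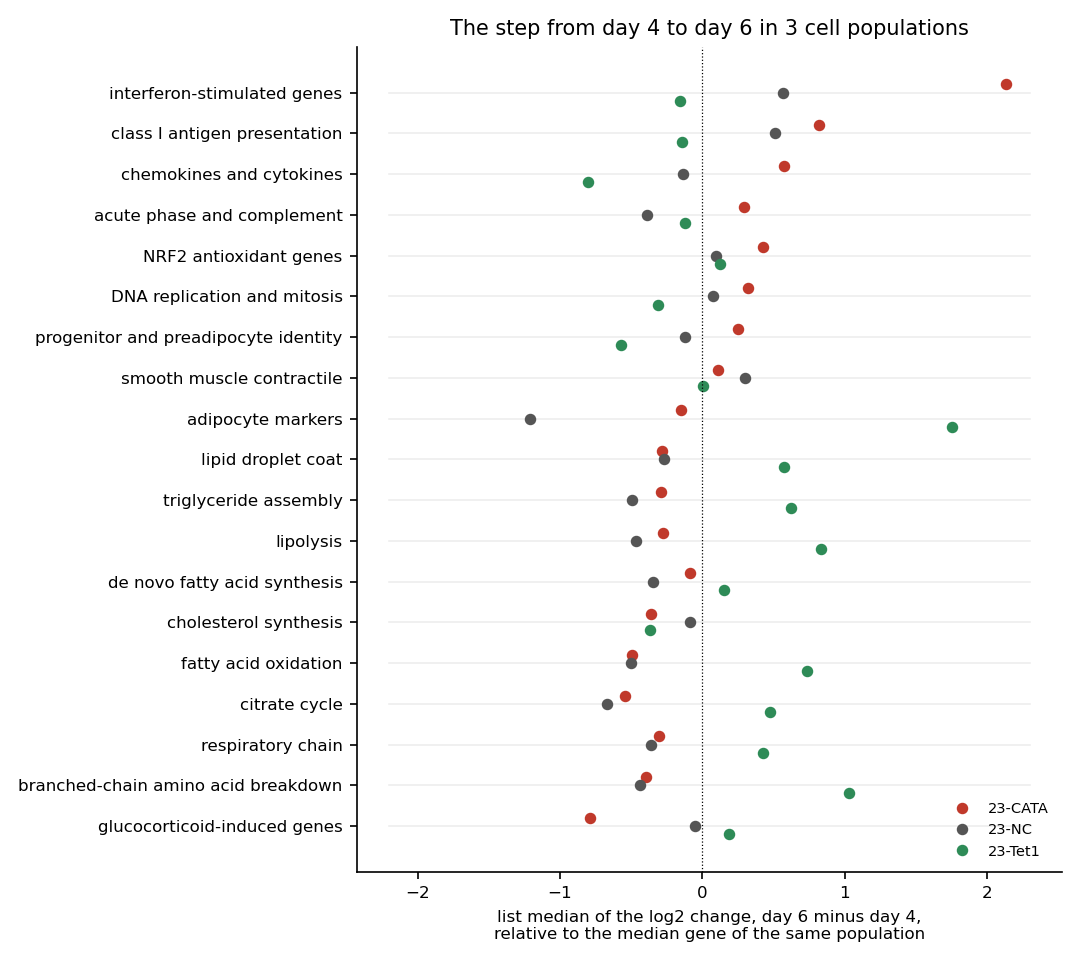
Median relative log2 change, day 6 minus day 4, of 19 gene lists in 23-CATA, 23-NC and 23-Tet1, with 1 point per population. The adipocyte markers lie at -0.15 in 23-CATA, -1.21 in 23-NC and 1.75 in 23-Tet1, and the interferon-stimulated genes at 2.13, 0.57 and -0.16.

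Adipocyte and mitochondrial genes ordered the populations differently. Of 21 adipocyte markers 2 rose and 18 fell in 23-NC, and the step difference was called higher for 17 and lower for 0 (16 and 1). In 23-Tet1 21 rose and none fell, and it was called higher for 1 and lower for 20 (1 and 20). The mean log2 level of these markers at days 0, 2, 4 and 6 was 5.17, 7.05, 8.24 and 8.59 in 23-CATA, 1.54, 3.55, 6.47 and 5.31 in 23-NC, and 1.17, 3.69, 6.24 and 8.0 in 23-Tet1. By this mean 23-CATA was the highest of the 3 at every day sampled. Adipoq was at 123, 136 and 118 FPKM at day 6 and at 274, 298 and 359 FPKM at day 4 in 23-NC, and at 1318, 1302 and 1456 FPKM and 260.1, 254 and 271 FPKM in 23-Tet1.

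Fatty acid oxidation fell in 23-NC as in 23-CATA, 21 of 30 genes lower with a median of -0.50, and the difference was called higher for 10 and lower for 2 (8 and 4). In 23-Tet1 28 of 30 rose, with a median of 0.73, and the difference was called higher for 1 and lower for 26 (1 and 28). Citrate cycle genes gave 2 higher and 21 lower of 25 in 23-NC and 23 higher and 0 lower in 23-Tet1, and the respiratory chain gave 5 and 44 of 75 in 23-NC and 47 and 0 in 23-Tet1. In 23-NC the days overlapped in the mean log2 level of the respiratory chain, at 7.205, 7.454 and 7.154 at day 6 and at 7.441, 7.478 and 7.897 at day 4. Against 23-Tet1 the difference was called lower for 23 citrate cycle and 53 respiratory chain genes (25 and 62) and higher for none. DNA replication genes gave 19 higher and 13 lower of 55 in 23-NC and 4 and 36 in 23-Tet1, with the difference called higher for 29 and lower for 2 against 23-NC (25 and 5) and higher for 48 and lower for 0 against 23-Tet1 (42 and 1).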

How the data were processed

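The authors aligned reads with STAR 2.4.1a and estimated levels with RSEM on mm10, per the submitters' processing notes, from TruSeq libraries of Trizol RNA, per the labels' protocols. The deposited values are FPKM per gene, 24982 genes in 36 libraries, and depth per library was estimated from the spacing of low FPKM values of 308 to 344 genes with 1 transcript, with transcript lengths from the GENCODE annotation. Whether counting used strand is not given in the sources used here. Values were taken as log2(FPKM + 1). A gene was kept where at least 3 libraries reached 1 FPKM, and the 12231 genes kept were fitted over all 36 libraries with limma 3.58.1 in R 4.3.3 (trended prior), with Benjamini-Hochberg adjustment. The 23-CATA day 6 minus day 4 contrast, the same contrasts in 23-NC and 23-Tet1, and their differences were tested. The procedure was tested on simulated data. Of the alternatives listed at the outset, scaling, pseudocount, filter, library weights, replicate block, fitting the compared groups alone and leaving out each library were run. Median-ratio scaling used 11915 genes.

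Genes named are a fixed set of 12, the 12 largest called rises and falls with groups that did not overlap and a mean of at least 5 FPKM, up to 4 called genes per direction of each of 53 gene lists, and the 6 largest step differences in each direction. Other genes named were chosen after their values were seen, among them the interferon receptors, Stat2 and the IRF factors and individual effector, class I and chemokine genes. The comparison and the lists were chosen with earlier results of these data known. No library duplicated another. The table turned 26 gene symbols into dates, and these were left as they stand. Promoter sequences are from RefSeq on GRCm38.p6, and 32 of the 45 interferon-stimulated genes matched. Some members of the lists are not reported here by name.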

Additional observations from a re-analysis of the deposited data

Results flagged for a closer look

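The day 6 against day 4 change of 23-CATA differed by the test of the difference itself from that of 23-NC for 5632 genes and from that of 23-Tet1 for 6597 genes. The values are log2 step differences, 23-CATA minus the other population, relative to the median gene. Against 23-NC they were positive for Saa3 (4.33), Cfd (4.22), Car3 (4.01), Ifi27l2a (3.59), Camp (3.58), Scd1 (3.34) and Ifit3 (1.28). They were negative for Rbp7 (-5.66), Hspb7 (-5.36), Cryab (-3.45), Fkbp5 (-3.29), Hspa1b (-3.28) and Aldh1l2 (-3.06). Against 23-Tet1 they were positive for the secreted factors Ccl2 (8.94), Saa3 (7.69), Ccl7 (6.73), Cxcl1 (6.55) and for Ifit3 (5.13). They were negative for Rbp7 (-7.27), Acsm3 (-5.69), Apoc3 (-5.51), Cyp2e1 (-5.47), Hspb7 (-4.88) and Fkbp5 (-4.75). The 3 populations also differed at day 4 and day 0, as the list levels show, and what separates their steps was not tested.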

How the results depend on the processing

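The 4665 calls in 23-CATA, 3470 higher and 1195 lower, depended on the scaling. Median-ratio scaling gave 1953 higher and 2175 lower, and quantile normalization 1856 higher and 1908 lower. Library weights gave 7683 calls, 5518 higher and 2165 lower, but their estimation did not converge. A pseudocount of 0.1 gave 637 differences of at least 1 log2 unit, against 342 with 1. Leaving out each library gave 3896 to 4515 calls, 2864 to 3404 higher, 1001 to 1142 lower and 333 to 354 of at least 1 log2 unit. Step differences then numbered 5241 to 5528 against 23-NC and 6221 to 6592 against 23-Tet1. Same-numbered replicates did not pair, with deviations from the group mean correlating at 0.092, -0.298 and -0.263 for the 3 pairs, and the fit with a replicate block gave 4603 calls, 3422 higher and 1181 lower. No named change reversed, and 141 of 158 changes and 24 of 24 step differences kept their side of the threshold in every setting run. Of the 17 named calls that changed in any setting, 13 did so outside library weights. Median-ratio scaling changed 6, single libraries left out 6, a pseudocount of 0.1 changed 4, the compared groups alone 3 and quantile normalization 3, while the replicate block and the fit with no filter changed none. Of 106 list counts, 47 changed beyond a set ratio, or to or from 0, in some setting. Median-ratio scaling and quantile normalization changed 27 each, and leaving out 1 library changed 14. Counts of 3 or fewer genes in a list moved by up to 3 when 1 library was left out. Larger counts moved too, as the lower calls of the respiratory chain did, from 20 to 12 without day 4 replicate 3. Without day 4 replicate 3 the interferon-stimulated list gave 40 higher and 1 lower and the glucocorticoid-induced list 2 higher and 19 lower.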
